A study of Mus musculus with 208 samples.

Results

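The embryos described here are single 4-cell mouse embryos conceived by in vitro fertilization (IVF) with sperm of germ-free (GF) fathers and eggs of conventionally raised (CR) mothers. They are written GF×CR, with the father first, and were set against CR×CR embryos, both of whose parents were CR. All 15 GF×CR embryos were used with 19 of the 25 CR×CR embryos, out of 70 embryos at this stage and 208 samples in the series. Parents were C57BL/6 mice, eggs came from superovulated females 4 to 6 weeks old, and embryos were cultured for 46 h after fertilization before polyadenylated RNA of each was sequenced. GF parents came from a university gnotobiotic colony and CR parents from a commercial C57BL/6 line, so microbial status and colony of origin cannot be told apart. The labels give neither the sire nor the IVF round of an embryo. By the paper, the 4-cell embryos were collected over repeated IVF rounds, fewer than the embryos of either group. Embryos of a group therefore shared rounds and may have shared sires. The p-values measure the spread between embryos, not between rounds or sires, and may be too small. Other embryos appear where they bear on these. They are 9 CR×GF 4-cell embryos (CR sperm, GF eggs), 21 RAG×WT 4-cell embryos (sperm of Rag2-/- fathers, wild-type eggs) and the GF×CR and CR×CR morulae, cultured for 72 h.

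The 19 controls were those in which Marchf2 was above Mtarc2, as in every GF×CR embryo, and the other 6 CR×CR embryos had the opposite order. Both genes code for proteins unrelated to each other, and both carried near-identical names in older annotations. Marchf2 ran between 20.5 and 117 TPM (levels corrected for transcript length and scaled to a common total) in GF×CR and between 46.1 and 134 TPM in CR×CR embryos, and the controls were chosen by these values, which support nothing else. The GF×CR embryo nearest the limit had 20.5 TPM of Marchf2 and 4.78 TPM of Mtarc2, and the nearest CR×CR embryo 55.1 and 13.05 TPM. The nearest CR×CR embryo outside was at 0 and 51.05 TPM. None of the 21 RAG×WT embryos belonged to this set, so for RAG×WT the set and the group cannot be told apart and no test was made.

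A 4-cell mouse embryo has lost most of the RNA stored in the egg and transcribes both parental genomes. Some genes still show from which parent RNA comes. Y-linked genes can come only from the father, Xist is made at this stage from the paternal X chromosome, and imprinted genes of the paternally expressed kind are read from the father's copy alone. Erdr1, the gene on which these data turn, is named for erythroid differentiation. RefSeq places it on GRCm38 chromosome X, bases 170010526 to 170018797, as a transcribed pseudogene, beside Mid1, a ubiquitin ligase gene that spans the boundary of the pseudoautosomal region, where the X and Y pair. Erdr1 has near-identical copies, such as Gm21887, which had no entry of its own in the embryo table, and reads from such copies could not be told apart here.

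Markers of 4-cell embryos and zygotic genome activation, 8 in all, ranged from high to near 0. Obox6, a homeobox gene of the cleavage stage, had a median of 3099 TPM in GF×CR and 2904 TPM in CR×CR embryos. Pou5f1, the pluripotency factor Oct4, had a median of 407 TPM in GF×CR and 518 TPM in CR×CR embryos. Eif1a had medians of 169 TPM in GF×CR and 186 TPM in CR×CR embryos. The other markers were low. Obox3 had medians of 2.04 TPM in GF×CR and 1.61 TPM in CR×CR embryos, and Zscan4d 2.59 TPM in GF×CR and 0 in CR×CR embryos. Zscan4c, Tcstv1 and Tcstv3 had a median of 0 in both groups. Of 8 markers of cumulus and granulosa cells, the somatic cells around the egg, the highest value was 4.75 TPM in GF×CR and 0.49 TPM in CR×CR embryos, and Inhba and Fshr were listed at 0 in all 34. A longer list of 22 such genes summed to 12.5 to 190 TPM (median 127) in GF×CR and 33.8 to 232 TPM (median 126) in CR×CR embryos, most of it from Amhr2, the receptor of anti-Müllerian hormone, with medians of 113 TPM in GF×CR and 105 TPM in CR×CR embryos. Of 8 sperm markers, Tnp1, Odf1, Akap4 and Smcp were listed at 0 in all 34 embryos. Ldhc, a lactate dehydrogenase of the testis, was above 0 in 10 of 15 GF×CR embryos (up to 19.2 TPM) and in 13 of 19 CR×CR embryos (up to 44.7 TPM). Prm1, Prm2 and Tnp2 were above 0 in at most 2 embryos of either group, with a highest value of 14.2 TPM in GF×CR and 11.9 TPM in CR×CR embryos. What part these cells have in the embryo values was not tested. Genes at 1 TPM or more numbered between 6429 and 9990 (median 9360) in GF×CR and between 6816 and 9941 (median 9298) in CR×CR embryos (permutation test, p = 0.732). Read depth is unknown, since TPM keep no counts.

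A GF×CR library, replicate 7, stood apart from the other 14. It held no RNA of 4 Y-linked genes (Ddx3y, Eif2s3y, Kdm5d and Uty) and 0.16 TPM of Xist, whereas each of the other 14 GF×CR embryos reached 1 TPM of the Y-linked sum or of Xist. Its 31 paternally expressed imprinted genes summed to 18.01 TPM, against 210 to 608 TPM (median 352) in the other 14 and 153 to 502 TPM (median 376) in the 19 CR×CR embryos. Snurf, which shares its transcript with the splicing gene Snrpn, was at 1.59 TPM in this embryo, between 113 and 530 TPM in the other 14 and between 77.6 and 342 TPM in CR×CR embryos. Much of the sum was Snurf, which had a median of 203 TPM in the other 14. Mcts2, an imprinted retrogene, was listed at 0 there and stood between 14.3 and 128 TPM in the other 14. Impact, a regulator of translation, was at 3.40 TPM against 7.25 to 48.4 TPM. Of 6 such genes above 0 in all the other 14 embryos, 5 were lower in replicate 7 than in any of them and Usp29 was not (9.98 TPM, against 0.88 to 23.8 TPM). The library was not thin, with 9911 genes at 1 TPM or more, and maternally expressed imprinted genes summed to 348 TPM, within the 299 to 1174 TPM of all 15. Whether this embryo held a paternal genome was not tested. Results are given with and without it.

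Erdr1 was the gene that separated embryos of GF sperm from controls. It ran from 1.37 to 88.0 TPM in the 15 GF×CR embryos, with a median of 42.3 TPM. In the 19 CR×CR embryos it ran from 0 to 2.39 TPM, with a median of 0, and was listed at 0 in 10. Its means were 44.5 ± 21.6 TPM in GF×CR and 0.757 ± 0.911 TPM in CR×CR embryos (SD, n = 15 and 19). In 14 of 15 GF×CR embryos Erdr1 stood above all CR×CR embryos, the lowest of the 14 at 24.4 TPM. Of 9314 genes tested, no gene separated all embryos of the groups in either direction. The next gene had 9 GF×CR embryos above every CR×CR embryo, and no gene had more than 10 below. For Erdr1 the groups overlapped through replicate 7 alone, at 1.37 TPM. On the log2(TPM + 0.5) scale, which understates changes of low genes, the fold change was 5.23 (standard error, SE, 0.42, Benjamini-Hochberg adjusted limma p = 3.79e-11), and a permutation of the group labels gave p = 1e-05, the smallest that 100000 resamples can give. Without replicate 7 the fold change was 5.53 (SE 0.35, Benjamini-Hochberg adjusted limma p = 3.53e-14). The 6 CR×CR embryos of the other set were between 0 and 10.1 TPM.

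**Figure D1:**
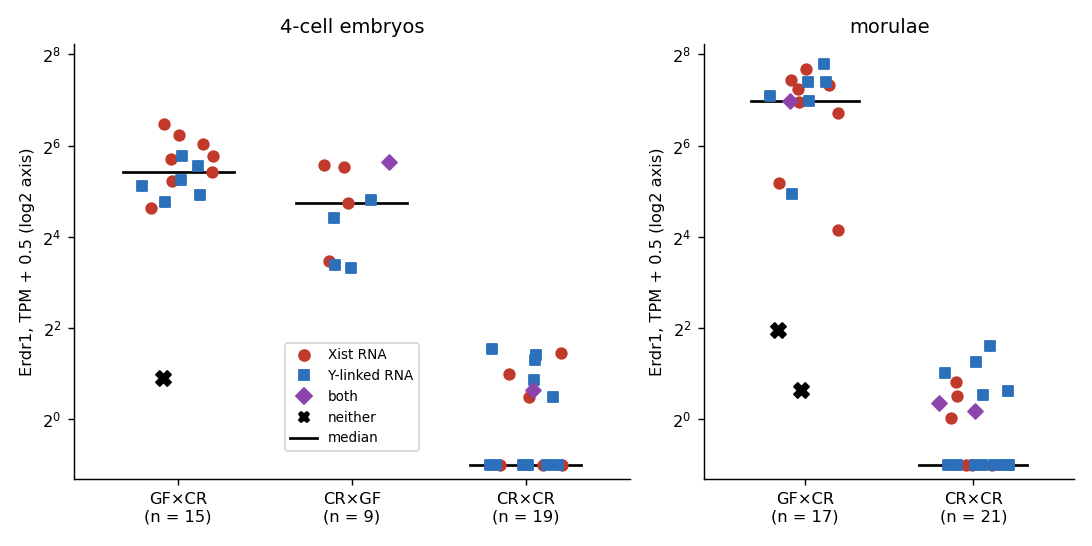
Erdr1 in single embryos, as TPM + 0.5 on a log2 axis, at the 4-cell stage (left) and in morulae (right), with a bar at the median of each group. Colors and shapes mark embryos by Xist and Y-linked RNA. At the 4-cell stage, 14 GF×CR embryos stood above 24 TPM and no CR×CR embryo above 2.39 TPM, and the black crosses mark embryos with neither Xist nor Y-linked RNA, which were low.

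Erdr1 was high in GF×CR embryos of either sex. Embryos were classed by 1 TPM of Xist or of the Y-linked sum, and none of the 34 fell between 0.5 and 2 TPM in either measure. The 8 GF×CR embryos with Xist alone had 24.4 to 88.0 TPM of Erdr1 (mean 54.7 ± 20.8, SD), and the 6 CR×CR embryos of this class 0 to 2.25 TPM (exact permutation test, two-sided, p = 0.000666). The 6 GF×CR embryos with Y-linked RNA alone had 26.6 to 54.2 TPM (mean 37.98 ± 10.4, SD), and the 12 CR×CR embryos of this class 0 to 2.39 TPM (exact permutation test, two-sided, p = 0.000108). Neither class overlapped between the groups in Erdr1, and how many other genes do so within a class was not counted. Within GF×CR, the embryos with Xist stood 0.47 above those with Y-linked RNA on the log2 scale, which did not pass (exact permutation test, 8 against 6 embryos, p = 0.119). The GF×CR effect on Erdr1 was not shown to differ between the classes either (difference 0.36 on the log2 scale, permutation of the class within each group, p = 0.566). GF×CR embryos divided into 8 with Xist, 6 with Y-linked RNA and 1 with neither, and CR×CR embryos into 6, 12 and none, with 1 that had both (Fisher's exact test of Xist against Y-linked RNA alone, p = 0.283).

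In morulae, which came from other embryos and stand in their own table, Erdr1 ran from 1.05 to 219 TPM in 17 GF×CR embryos (median 126) and from 0 to 2.52 TPM in 21 CR×CR embryos of the same set (median 0). The fold change was 6.31 on the log2 scale (SE 0.49, Benjamini-Hochberg adjusted limma p = 3.32e-12). Replicates 9 and 10 of the GF×CR morulae again had neither Xist nor Y-linked RNA, and they were the lowest in Erdr1, at 1.05 and 3.38 TPM, against 17.4 to 219 TPM in the other 15. Their paternally expressed imprinted genes summed to 10.7 and 10.1 TPM, against 364 to 824 TPM in the other 15. Snurf did not pass 0.43 TPM in either and was at 217 TPM or more in the other 15. Much of the sum was Snurf, with medians of 359 TPM for Snurf and 494 TPM for the sum in the other 15. Of 10 paternally expressed imprinted genes above 0 in all the other 15, 6 were lower in both replicates than in any of them and 4 were not. Over both stages, the 3 GF×CR embryos without Xist and Y-linked RNA were thus the 3 lowest in Erdr1 and in the paternally expressed sum. That observation was made after the values were seen and is given as a description. Without replicates 9 and 10 the fold change of Erdr1 in morulae was 6.95 (SE 0.33, Benjamini-Hochberg adjusted limma p = 5.28e-19). Over 9883 genes, 453 (4.58 percent) were called in morulae, and Erdr1 alone with the number of detected genes as a covariate, in which the groups differed (medians of 9263 genes in GF×CR and 10111 in CR×CR morulae).

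**Figure D2:**
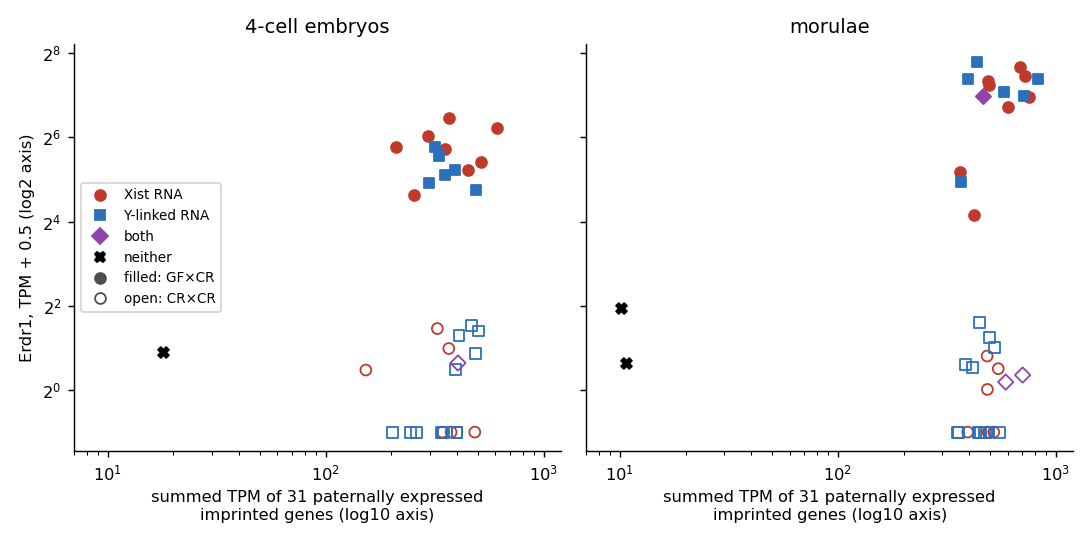
Erdr1 (TPM + 0.5, log2 axis) against the summed TPM of 31 paternally expressed imprinted genes (log10 axis) in 4-cell embryos (left) and morulae (right). Filled marks are GF×CR embryos and open marks CR×CR embryos. The crosses at 18.01 TPM (4-cell) and at 10.1 and 10.7 TPM (morulae) are the GF×CR embryos with neither Xist nor Y-linked RNA. CR×CR embryos had little Erdr1 at sums of 153 TPM or more, in both stages.

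Embryos with the GF gamete on the other side also had Erdr1. The 9 CR×GF embryos, of CR sperm and GF eggs, were between 9.52 and 49.4 TPM (median 26.1), all above the 19 CR×CR embryos. GF×CR embryos stood 0.65 above CR×GF embryos on the log2 scale (SE 0.47), which did not pass (limma, unadjusted p = 0.184, Benjamini-Hochberg adjusted p = 0.773). Without replicate 7 the difference was 0.95 (SE 0.33, adjusted limma p = 0.689). The adjustment covers all genes tested, so these values do not show equal Erdr1 in both groups. Across 9927 genes this comparison called 1 gene, or 0.0101 percent. It was Tescl, which is named here after its values were seen. Tescl averaged 0.611 ± 1.56 TPM in GF×CR and 9.78 ± 6.42 TPM in CR×GF embryos (log2 fold change -3.38, SE 0.57, Benjamini-Hochberg adjusted limma p = 0.0167). With no filter on low values, a filter at 5 TPM or a pseudocount of 0.1, no gene passed.

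Erdr1 has few expressed neighbours. Mid1, which ends 19728 bases before Erdr1, was above 0 in 10 of 15 GF×CR embryos (0 to 5.99 TPM, median 0.51) and in 3 of 19 CR×CR embryos (0 to 1.6 TPM, median 0). It was detected more often in GF×CR embryos (Fisher's exact test, p = 0.00424), a test chosen after the values were seen. The same held in GF×CR morulae, with 12 of 17 against 5 of 21 CR×CR morulae of the same set (Fisher's exact test, p = 0.00792). Among the 9 CR×GF 4-cell embryos, which all had Erdr1, Mid1 was above 0 in 2. In the other set it was above 0 in 11 of 22 CR×CR morulae and in 1 of 6 CR×CR 4-cell embryos. Mid1 was below the filter on low values, and in a fit without a filter its log2 fold change of 1.32 (SE 0.34) did not pass (adjusted limma p = 0.917). Hccs, a mitochondrial heme lyase gene farther from Erdr1, had 0 to 106 TPM (median 38.2) in GF×CR and 4.15 to 77.6 TPM (median 25.5) in CR×CR embryos, with a log2 fold change of -0.07 (adjusted limma p = 0.999 in the filtered fit). Asmt and Amelx, a melatonin synthesis gene and an enamel gene, were listed at 0 in all 34 embryos.

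No other gene passed. Of 9314 genes at 1 TPM or more in at least 15 embryos, Erdr1 alone met the call (1 gene, 0.0107 percent), for which an adjusted p below 0.05 was needed together with a log2 change larger than 1. The next smallest adjusted p was 0.957 (limma, Benjamini-Hochberg). No gene was lower in GF×CR embryos at this threshold, against 189 lower and 164 higher at an unadjusted p under 0.05, which together are 3.79 percent of the genes tested. At the threshold of the study for embryos, an unadjusted p below 0.05 with a log2 change larger than 1, 96 genes were higher and 86 lower, or 1.03 and 0.923 percent. The median log2 fold change of all genes tested was -0.03. With array quality weights, which count embryos of larger residuals for less, 11 genes passed, all higher in GF×CR embryos. They were Erdr1, Dapk3, Rab24, Ywhah, Zfp622, Srsf2, Mcm9, Yrdc, Rac1, Zmynd19 and Khdrbs1. Under a filter at 5 TPM no gene passed, and Erdr1 itself was not tested there, as 14 and not 15 embryos reached that level.

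**Figure D3:**
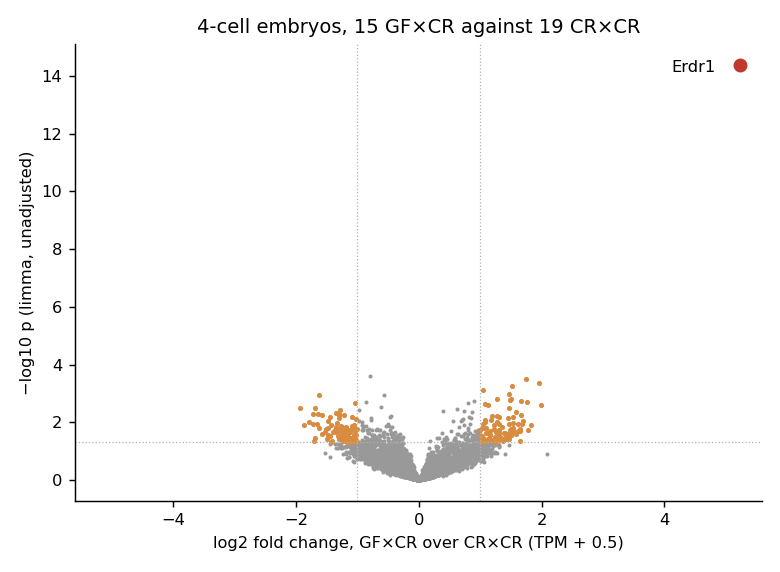
Log2 fold change (GF×CR over CR×CR, TPM + 0.5) against −log10 of the unadjusted limma p for 9314 genes in 15 GF×CR and 19 CR×CR embryos. Orange marks the other genes past the study threshold and dotted lines its limits. Erdr1 stands at 5.23, apart from all others.

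The genes named below as next in order did not pass the adjusted test (adjusted p between 0.957 and 0.999, limma), and their values are given as levels. Desi2, a deSUMOylating peptidase gene, had 0.17 to 15.1 TPM (median 4.51) in GF×CR and 0 to 4.51 TPM (median 0.63) in CR×CR embryos, a log2 difference of 1.75 (SE 0.44). Dapk3, a kinase of cell death and contractility, had 0 to 22.9 TPM (median 6) in GF×CR and 0 to 5.29 TPM (median 0.84) in CR×CR embryos, a log2 difference of 1.96. Dhcr7, the last enzyme of cholesterol synthesis, had 1.98 to 23.5 TPM (median 10.3) in GF×CR and 0 to 17.1 TPM (median 3.47) in CR×CR embryos. All 3 overlapped between the groups. Rab24, a GTPase of autophagy, had medians of 72.9 TPM in GF×CR and 33.03 TPM in CR×CR embryos, and Zfp622, a factor of ribosome assembly, 148 TPM in GF×CR and 54.5 TPM in CR×CR embryos. The remaining genes of this side were Alg9, Mcm9, Hdc and E2f6, with log2 differences between 1.48 and 1.77.

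On the lower side, Zfand2b, a proteasome-associated gene, had 4.99 to 51.2 TPM (median 22.9) in GF×CR and 10.4 to 137 TPM (median 44.7) in CR×CR embryos. Idh1, the cytosolic isocitrate dehydrogenase, had 3.72 to 124 TPM (median 45.7) in GF×CR and 23.2 to 162 TPM (median 96.0) in CR×CR embryos, a log2 difference of -1.22 (SE 0.41). Ccdc152, Mgl2, Tmem116, Alg6 and Mex3b had a median of 0 in GF×CR and of 1.42, 2.42, 4.55, 2.63 and 1.6 TPM in CR×CR embryos. These 5 genes are low, and the GF×CR range lay inside the CR×CR range for each. Dusp19, Trim40 and Slc35f5 had log2 differences of -1.29, -1.64 and -1.30. Of these 19 genes of both sides, 18 could be tested against CR×GF embryos and none passed. In morulae 16 could be tested, and Desi2 passed in the opposite direction (log2 fold change -1.21, Benjamini-Hochberg adjusted limma p = 0.0067). Over all 9883 genes tested in morulae, 453 (4.58 percent) were called, 444 of them lower, so 1 of 16 is near that share. With the number of detected genes as a covariate, Erdr1 alone was called in morulae, and Desi2 was not.

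**Figure D4:**
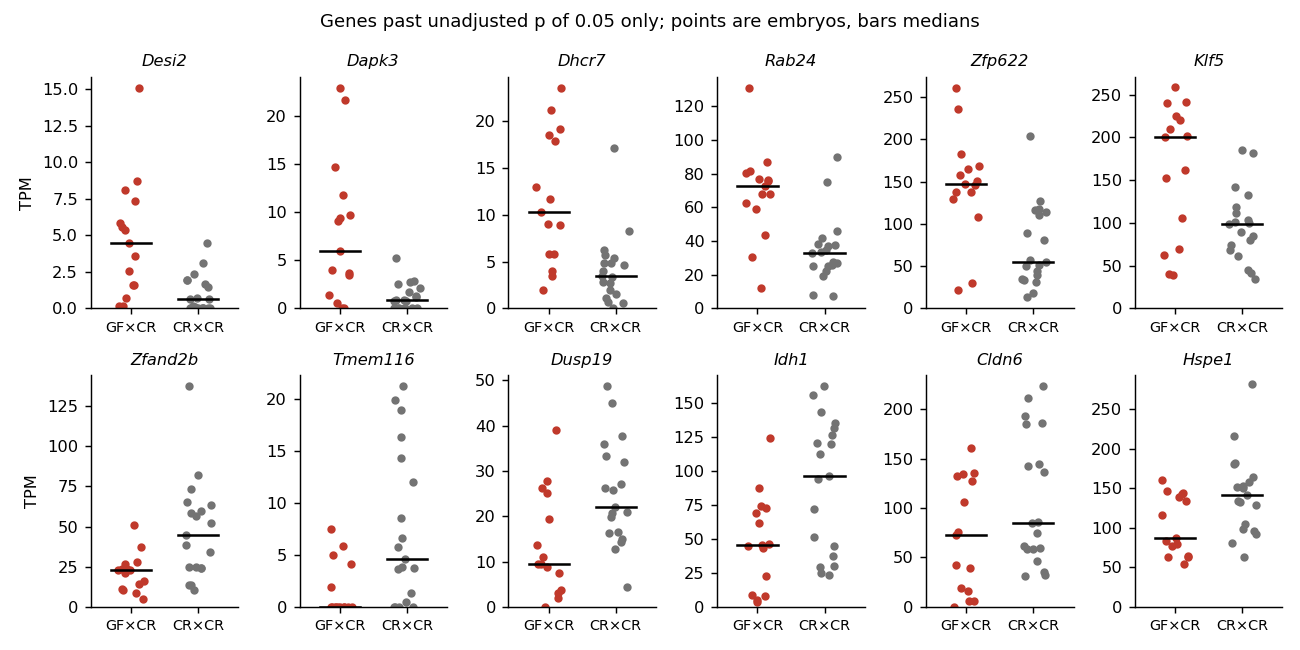
TPM of 12 genes in single 4-cell embryos, 15 GF×CR (left of each panel) and 19 CR×CR, with bars at the medians. The top row holds genes with higher and the bottom row genes with lower log2 means in GF×CR embryos, all past an unadjusted p of 0.05 only. The groups overlap in every panel.

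The histone H4 gene Hist1h4m was above 0 in 1 GF×CR embryo (8.80 TPM) and Hist1h4n in 2, with a maximum of 15.5 TPM, and both were listed at 0 in all 19 CR×CR embryos. Neither passed a permutation test (p = 0.443 and p = 0.188). Tslp, the cytokine of the study's sebum circuit, had 0 to 23.1 TPM (median 4.58) in GF×CR and 0 to 15.5 TPM (median 3.09) in CR×CR embryos, a log2 difference of 0.04 (SE 0.59). Scd1, a fatty acid desaturase of sebocytes, had 1.63 to 42.8 TPM (median 22.8) in GF×CR and 0 to 47.0 TPM (median 13.9) in CR×CR embryos, a log2 difference of 0.70 (SE 0.53, adjusted p = 0.999, limma). Rag2 was listed at 0 in all 34 embryos.

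The programs of the early embryo were described by lists of genes, and none of the 25 lists held a called gene. Their 550 distinct tested members included 30 at an unadjusted p under 0.05, or 5.45 percent, beside 3.79 percent of all genes. Over all genes tested, 4228 had a positive and 5084 a negative log2 difference, the background for the counts of each list given here and below. Of 29 tested transcripts of the oocyte, 21 had a positive log2 difference, with a median of 0.11. In it Omt2b had 96.7 to 3994 TPM (median 295) in GF×CR and 73.3 to 560 TPM (median 179) in CR×CR embryos, and Padi6, of the cytoplasmic lattice, had medians of 36.4 TPM in GF×CR and 25.9 TPM in CR×CR embryos. Khdc3, of the subcortical maternal complex, was on the other side, with medians of 95.3 TPM in GF×CR and 136 TPM in CR×CR embryos. The summed oocyte list had medians of 11393 TPM in GF×CR and 10939 TPM in CR×CR embryos. It was highest in replicate 1 of each group, at 30948 TPM in GF×CR and 22998 TPM in CR×CR. These 2 libraries also had the fewest genes at 1 TPM or more, 6429 and 6816. Of 22 tested genes of zygotic genome activation, 11 lay on each side of 0, and Eif1a, a translation initiation factor gene, had medians of 169 TPM in GF×CR and 186 TPM in CR×CR embryos.

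Lineage genes were spread likewise. Of 22 genes of pluripotency and the inner cell mass, 7 had a positive and 15 a negative log2 difference (median -0.16). Klf5, a factor of both early lineages, had 39.7 to 259 TPM (median 201) in GF×CR and 34.5 to 186 TPM (median 99.2) in CR×CR embryos, a log2 difference of 0.62 (SE 0.27, unadjusted limma p = 0.0257). Zfp42, also called Rex1, was on the other side, with medians of 40.2 TPM in GF×CR and 68.8 TPM in CR×CR embryos. Among 17 trophectoderm genes 6 were positive and 11 negative (median -0.43), and the tight junction gene Cldn6 had 0 to 161 TPM (median 72.7) in GF×CR and 31.1 to 223 TPM (median 84.6) in CR×CR embryos. The summed level of the trophectoderm list ran from 453 to 1444 TPM (median 917) in GF×CR and from 519 to 1602 TPM (median 968) in CR×CR embryos.

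Genes of small RNA, chromatin and imprinting held no called member either. Of 26 tested genes of small RNA and RNA decay, 18 had a positive and 8 a negative log2 difference (median 0.13), and none had an unadjusted p under 0.05. Of 37 tested regulators of DNA methylation and chromatin, 17 were positive and 20 negative (median -0.05). There Smarcd2, a chromatin remodeling subunit, had medians of 23.7 TPM in GF×CR and 13.6 TPM in CR×CR embryos, Ehmt2, a histone H3 lysine methyltransferase, 33.7 TPM in GF×CR and 19.6 TPM in CR×CR embryos, and the dioxygenase Tet2 0.98 TPM in GF×CR and 2.07 TPM in CR×CR embryos. Of the 12 tested paternally expressed imprinted genes, with Xist counted here, 5 were positive and 7 negative (median -0.15). Xist was the highest of these, at 0.90, and its level depends on the sex of the embryos. Of the 10 maternally expressed ones, 6 were positive and 4 negative (median 0.02).

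In the list of heat shock and oxidative stress, 14 of 27 members were positive and 13 negative, and the lowest p-values were of Hspe1, a mitochondrial chaperonin, and Txn1, thioredoxin. Hspe1 had 53.9 to 161 TPM (median 87.4) in GF×CR and 62.8 to 282 TPM (median 141) in CR×CR embryos, a log2 difference of -0.47 (SE 0.19, unadjusted limma p = 0.0184). Txn1 had medians of 32.3 TPM in GF×CR and 50.5 TPM in CR×CR embryos. Genes of p53 and apoptosis (12 positive, 13 negative), of the integrated stress response (11 and 10), of glycolysis (6 and 10), of fatty acid synthesis (13 and 9), of cholesterol synthesis (9 and 12), of the cell cycle (11 and 26), of interferon and innate immunity (4 and 6), of nuclear oxidative phosphorylation (29 and 58) and of ribosomal proteins (48 and 36) had medians between -0.14 and 0.04. The 8 tested replication-dependent histones had a median of -0.46, with 2 positive and 6 negative. Of 10 genes known to differ between C57BL/6 substrains that the table lists, 4 could be tested and none passed. The most different, Ide, had medians of 9.68 TPM in GF×CR and 19.4 TPM in CR×CR embryos (unadjusted limma p = 0.146).

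**Figure D5:**
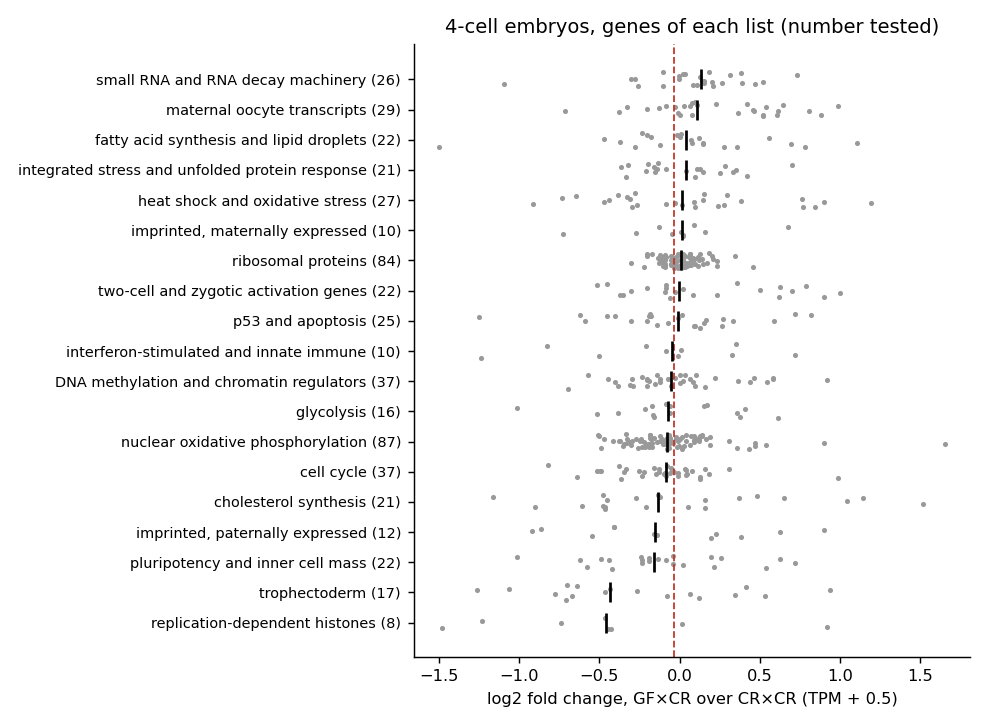
Log2 fold changes (GF×CR over CR×CR, TPM + 0.5) of single genes, as gray points, in each list with 8 or more tested genes. Black ticks are the list medians and the dashed red line the median of all 9314 genes, -0.03. List medians lay between -0.46 and 0.13, and no gene shown passed the adjusted test.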

How the data were processed

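Single-embryo RNA-seq was analysed in 15 GF×CR and 19 CR×CR 4-cell embryos, with CR×GF embryos and morulae for comparison. The deposited values are TPM, named CPM by the authors, who mapped reads with RSEM to mm10 (the RSEM version is not given in the sources used here). Each embryo sums to 1000000 within rounding, and TPM keep no read depth. Here limma 3.58.1 (R 4.3.3), with its variance trend and p-values adjusted by Benjamini-Hochberg, tested log2(TPM + 0.5) of genes at 1 TPM or more in as many embryos as the smaller group holds, and genes were called where the adjusted p was below 0.05 and the log2 change larger than 1. The fit was run on simulated data with independent embryos and planted changes, which do not bear on shared IVF rounds or sires. Single genes had permutation tests (100000 resamples, or exact). Named genes were the 10 largest called rises and falls, filled to 10 by smallest p where the unadjusted p was below 0.05 and the log2 change larger than 1, without predicted names, then genes the paper names and, in each list, up to 4 of smallest p, of which some are printed. Members and lists were chosen with earlier results of these data known. Sequences of Erdr1 were not used here. Adult tissues were not analysed here. Alternatives were other pseudocounts, filters, scalings, weights, covariates, a replicate block and both sets of embryos. Leaving out embryos by Xist and Y-linked RNA or by few detected genes was chosen after seeing the data.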

Additional observations from a re-analysis of the deposited data

Results flagged for a closer look

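RAG×WT 4-cell embryos entered no comparison, as all 21 belong to the set of embryos with Mtarc2 above Marchf2. Erdr1 stood above the highest of the 6 CR×CR embryos of that set, 10.1 TPM, in 11 of these 21 embryos, with a highest value of 142 TPM. By class, Erdr1 had a median of 31.8 TPM (1.28 to 142) in 8 embryos with Y-linked RNA alone and of 3.38 TPM (0 to 18.9) in 8 with Xist alone, a difference that was not tested. Some were classed close to the limit of 1 TPM. Replicate 21, the lowest of the Y-linked class in Erdr1, had 1.19 TPM of Y-linked RNA. Replicate 11, the highest of the Xist class in Erdr1, had 1.58 TPM of Xist, and replicate 12 had 1.08 TPM. The 2 RAG×WT embryos with neither had 0 and 1.05 TPM.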

How the results depend on the processing

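Erdr1 kept its direction and passed in the 17 alternatives that tested it, with log2 fold changes from 4.59 (pseudocount of 1) to 6.57 (pseudocount of 0.1) and adjusted p-values from 3.53e-14 to 4.83e-05 (limma). The single-gene difference was 5.23. The count of 1 called gene became 11 with array quality weights and 0 with a filter at 5 TPM, where Erdr1 had no value. It was 182 at the study threshold. Against CR×GF embryos the 1 called gene became 0 with a filter at 5 TPM, no filter, a pseudocount of 0.1 or the replicate block. The cause of these moves was not tested. In morulae 453 genes were called (9 higher, 444 lower, 4.58 percent), and 1, Erdr1, with the number of detected genes as a covariate, where GF×CR morulae had a median of 9263 and CR×CR morulae of 10111. The morula count was 873 with both sets, 112 with weights, 279 with a filter at 5 TPM, 300 with no filter, 268 with a pseudocount of 1, 109 with quantile normalization and 77 with the replicate block. Of the 50 other genes followed, 4 passed under weights only (Dapk3, Rab24, Mcm9 and Zfp622). Changes of sign were of genes that passed nowhere. Tslp was -0.13 with weights, -0.012 with both sets, -0.026 without replicate 7 and -0.028 without the 4 embryos of fewest genes per group, and in Xist embryos alone Tslp was -0.39, Scd1 -0.14 and Fbxo5 0.0003. In Y-linked embryos alone Serpine2 was 0.18 and Hist1h2ae 0.13. Replicate numbers did not pair embryos (15 pairs, correlations from -0.20 to 0.47, 3 over 0.1, 2 of 15 best with their own number), and with the replicate block Erdr1 was 5.23 and the count was 1. The test against RAG×WT was not run. TPM give no depth, so values listed at 0 do not show absence.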
